A study of Mus musculus with 19 samples.

Results

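Regulatory T cells (Tregs) of uninjured mice were compared between a CD44high and a CD44low sort by bulk RNA sequencing, in 9 of the 19 libraries of the series. The members were chosen by their labels: 4 CD44high libraries (numbered 2 to 5) and 5 CD44low libraries (numbered 1 to 5). All came from Foxp3DTR mice, which express a GFP reporter and the diphtheria toxin receptor under the control of *Foxp3*. Uninjured mice underwent a sham procedure in place of the burn, and CD4+FoxP3-GFP+ cells were sorted by FACS from the axillary, brachial and inguinal lymph nodes, as CD44high or as CD44low cells. The other 10 libraries were made from the same sorts of injured mice (4 CD44high and 6 CD44low), 7 days after a burn. The 6 CD44low libraries of injured mice are labelled 1, 2, 5, 1_2, 4_2 and 5_2. Whether a second number marks a repeat of a sample is not given, and the fit treated all 6 as separate. RNA of 50000 cells was used for each sample. The mice were adults by the age range in the study's methods. The labels give neither how many mice were used for 1 sample nor where the gates on CD44 lay, so p-values measure the spread between these samples, which may in part be technical.

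CD44 is the main receptor for hyaluronan and stays high on T cells after they have been activated by antigen. Tregs in lymph nodes are commonly divided into resting (central) cells, which circulate through lymphoid tissue with CCR7 on their surface, and effector cells, which carry receptors for tissue entry and more of the suppressive molecules. The resting state of T cells is maintained by factors such as TCF1, LEF1, FOXO1, KLF2 and SATB1, and effector Tregs depend on factors such as BLIMP1, IRF4 and BATF.

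Libraries held between 5678888 and 8319320 counts, and between 12622 and 13396 genes had a count in each. Pearson's r of log2 CPM between replicates, across genes, ranged from 0.959 to 0.979, and no 2 libraries of a group agreed within counting noise. Levels are given as CPM, counts scaled to a common normalised library size, as mean ± SD over 4 CD44high and 5 CD44low libraries unless each library is given, and differences as fitted log2 fold changes of CD44high over CD44low Tregs with their standard error (SE). A gene was called higher or lower at an adjusted p under 0.05 in edgeR's quasi-likelihood test (two-sided, Benjamini-Hochberg adjustment over the 11464 genes tested). Genes were named by a rule given with the processing, except that *Batf*, *Elf4*, *Gata3*, *Gins3*, *S100a4*, *Tbx21*, *Top2a* and *Vim* were named after their values were seen.

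CD44high and CD44low Tregs differed in a large part of the genes they express. Of 11464 genes tested, 2837 (24.7%) were higher and 2443 (21.3%) were lower in CD44high Tregs, and 1384 (12.1%) and 922 (8.04%) of them by 2-fold or more. The fitted changes reached further upward than downward. At 8-fold or more 418 genes were higher and 59 lower, and at 32-fold or more 130 were higher and 9 lower. The 2-fold higher genes took between 10.42% and 10.45% of all counts in the CD44high libraries and between 3.07% and 3.24% in the CD44low libraries. For the 2-fold lower genes these shares were between 3.08% and 3.27% and between 8.24% and 8.68%. These shares come from the genes called and describe their size only. In RNA of sorted cells, fewer cells that express a gene and less RNA per cell cannot be told apart.

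The excess of 2-fold higher genes lay among genes of low and middle level. Among 2717 genes with a mean of 1 to 10 CPM over the 9 libraries, 656 were 2-fold higher and 335 lower. Among 2327 genes with 100 to 1000 CPM the counts were 140 and 143, and the median log2 fold change of these was 0.026. Of the 1384 genes, 45 had no count in any CD44low library, whereas 3 of the 922 had none in any CD44high library. The median log2 fold change over all genes tested was 0.0091, the value beside which the medians of gene lists below are to be read. Counts of list members called are likewise to be read beside the shares of all genes tested, 24.7% higher and 21.3% lower.

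**Figure D1:**
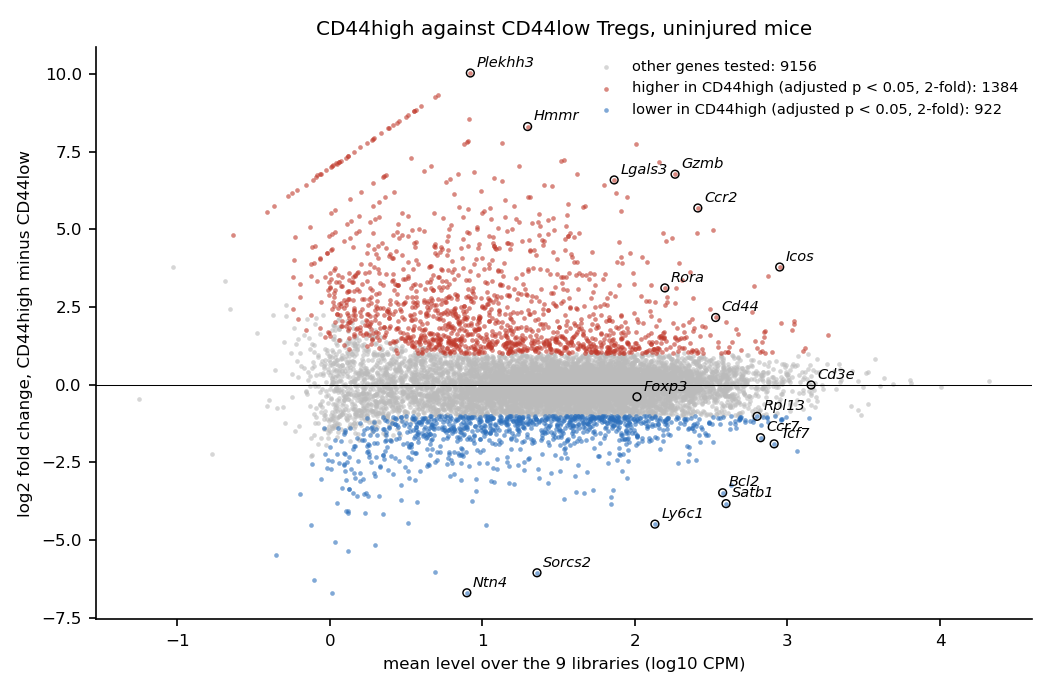
Log2 fold change of CD44high over CD44low Tregs against the mean level over the 9 libraries (log10 CPM) for the genes tested in uninjured mice, leaving out 2 genes without a count in them. Red points are the 1384 genes called higher and blue points the 922 called lower by 2-fold or more, grey points are other genes, and circled genes are named in the text. Red points reach further from 0 than blue points, and the straight red line at the left consists of genes without a count in CD44low Tregs, whose fitted change is set by their level.

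The surface marker of the sort also differed as RNA. *Cd44* was measured at 614, 597, 541 and 626 CPM in the CD44high libraries and 156, 137, 135, 128 and 111 CPM in the CD44low libraries. Every CD44high library was above every CD44low library, with a log2 fold change of 2.16 (adjusted p = 6.19e-13, SE 0.1196). The other genes of the sort were not called. *Foxp3*, the factor that defines Tregs, was at 86.1, 103, 77.4 and 84.4 CPM in the CD44high libraries and 144, 116, 112, 101 and 103 CPM in the CD44low libraries, with overlapping ranges, at a log2 fold change of -0.39 (adjusted p = 0.186, SE 0.23999). That adjusted p was under 0.05 in 4 of the alternatives (range 0.00585 to 0.338), all with the log2 fold change below 0. *Cd4* was at 794 ± 51.99 and 820.1 ± 51.6 CPM (log2 fold change -0.046, SE 0.11001, adjusted p = 0.755) and *Cd3e* at 1422 ± 111 and 1436 ± 107 CPM (-0.015, SE 0.0858, adjusted p = 0.904), so the defining genes of the labelled cells were detected in both sorts.

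The 10 genes of smallest p on the higher side included the receptor genes *Ccr2* and *Rora*. *Ccr2*, a receptor for monocyte chemoattractant chemokines, stood at 503, 652, 548 and 568 CPM in the CD44high libraries and 11.6, 9.45, 8.52, 9.92 and 16.04 CPM in the CD44low libraries. The 2 sets of libraries did not overlap and lay far apart (log2 fold change 5.68, SE 0.1999, adjusted p = 7.61e-16). *Rora*, the nuclear receptor RORα, was measured at 308, 341, 288 and 299 CPM in the CD44high libraries and 39.7, 36.2, 35.6, 32.2 and 35.1 CPM in the CD44low libraries, again without overlap, a log2 fold change of 3.11 (adjusted p = 7.61e-16, SE 0.1101). The others by this rule were *Cxcr6*, *Ccr10*, the costimulatory receptor gene *Icos*, the inhibitor of E proteins *Id2*, the cyclin gene *Ccnb2*, galectin-3 (*Lgals3*), the myosin gene *Myo1f* and fibrinogen-like protein 2 (*Fgl2*), with log2 fold changes from 3.19 (*Id2*) to 7.75 (*Ccr10*).

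The corresponding 10 genes on the lower side included *Satb1*, *Bcl2* and *Ly6c1*. *Satb1*, a chromatin organizer of T cells, was at 32.8, 55.4, 45.7 and 54.8 CPM in the CD44high libraries and 628, 615, 695, 697 and 738 CPM in the CD44low libraries. All CD44high libraries lay below all CD44low libraries, at a log2 fold change of -3.83 (adjusted p = 7.61e-16, SE 0.137). *Bcl2*, the survival factor of resting lymphocytes, stood at 59.2, 59.5, 60.05 and 47.6 CPM in the CD44high libraries and 681, 551, 571, 657 and 699 CPM in the CD44low libraries (log2 fold change -3.48, SE 0.169, adjusted p = 5.42e-14). *Ly6c1*, a surface antigen gene of the Ly6 family, was measured at 7.67, 11.5, 10.3 and 11.9 CPM in the CD44high libraries and 198, 227, 235, 250.2 and 266 CPM in the CD44low libraries (log2 fold change -4.49, SE 0.2004, adjusted p = 1.36e-14). Neither gene showed any overlap between the groups. Reads of *Ly6c1* and its near-identical neighbour *Ly6c2* may have been divided in counting, so values of both are uncertain. The rest of this set were *Tcf7*, which encodes TCF1, the lymph node homing receptor gene *Ccr7*, the integrin chain gene *Itga4*, and *Evl*, *Igf2r*, *Vps37b* and *Degs2*, with log2 fold changes between -3.002 (*Itga4*) and -1.63 (*Vps37b*).

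The largest changes among genes at 10 CPM or more in the higher group included genes without a count in 1 of the sorts. *Plekhh3* was at 19.4, 16.1, 20.3 and 19.2 CPM in the CD44high libraries and had no count in any CD44low library, at least 205-fold higher against a floor of 3 counts over the 5 CD44low libraries. The histamine receptor gene *Hrh4* (15.5, 8.65, 10.2 and 11.8 CPM) and *Ncam1*, which encodes the adhesion molecule CD56 (6.42, 13.4, 13.3 and 10.8 CPM), also had no count in CD44low Tregs, which makes them at least 125-fold and at least 120.2-fold higher. *1500009L16Rik*, *Ccr1*, *E2f8* and *Parpbp* had 1 or 2 counts over all CD44low libraries. The CPM ratio of *1500009L16Rik* was 603 (95% exact counting interval 108 to 23856) and that of *E2f8* 296 (95% exact counting interval 81.6 to 2454). *Pbk*, a mitotic kinase gene, had a log2 fold change of 7.76, which was 10.703 without CD44low library 4.

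Downward, the changes of this kind were led by *Ntn4*, which encodes the secreted protein netrin-4, and *Sorcs2*, a sorting receptor gene. *Sorcs2* stood at 0, 0.848, 1.501 and 0.123 CPM in the CD44high libraries and 52.5, 45.2, 40.03, 42.1 and 22.96 CPM in the CD44low libraries. It was close to 0 in the CD44high libraries and had no overlap (log2 fold change -6.06, and -6.96 without CD44high library 4). *Ntn4* had 3 counts over all CD44high libraries and was measured at 14.7, 6.302, 16.2, 20.8 and 12.7 CPM in the CD44low libraries, a CPM ratio of CD44low over CD44high Tregs of 122 (95% exact counting interval 41.6 to 596). *Dapk1*, *Ly6c1*, *Art2b*, *Satb1*, *Tspan9*, *Cnn3*, *Gm4956* and *Actn1* followed, with log2 fold changes from -4.52 to -3.51.

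**Figure D2:**
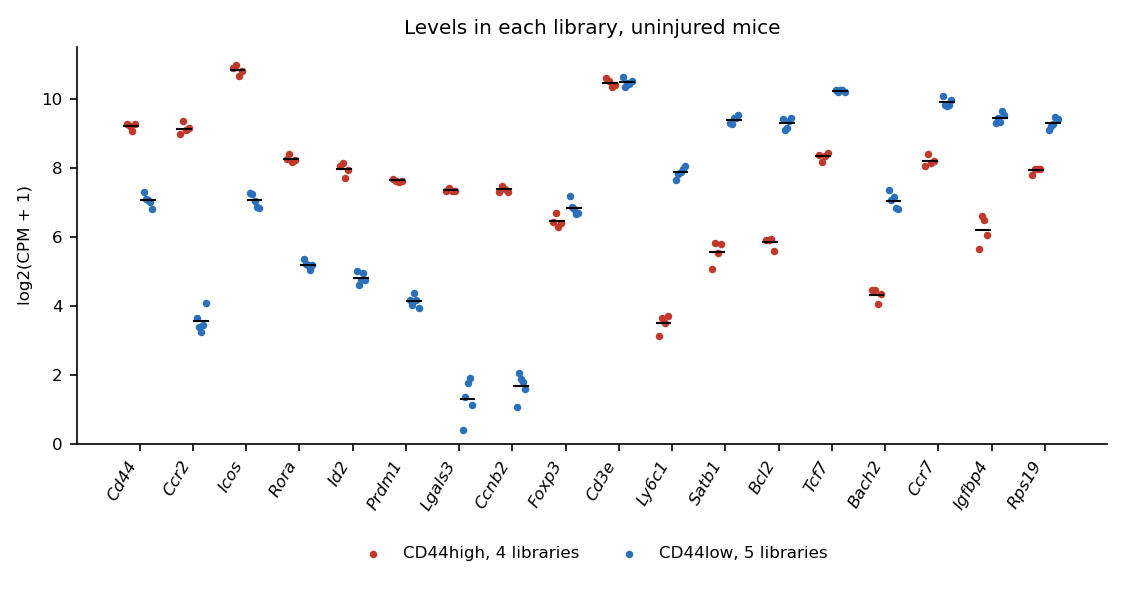
Level of 18 genes in each library of uninjured mice as log2(CPM + 1), red for the 4 CD44high and blue for the 5 CD44low libraries, with a bar at the mean. The groups stand apart for every gene shown except *Foxp3* and *Cd3e*, and the points of a group lie close together beside the distance between groups.

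Transcription factors were taken in lists by the state they are known for. Of the factors linked to effector and tissue Tregs, 22 of 25 members tested were higher, 1 was lower and 2 were not called (median log2 fold change 2.103). *Prdm1*, which encodes BLIMP1, was at 206, 198, 194 and 196 CPM in the CD44high libraries and 16.9, 15.4, 19.6, 16.96 and 14.2 CPM in the CD44low libraries. No library of one group reached the range of the other (log2 fold change 3.58, SE 0.194, adjusted p = 4.43e-13). *Nfil3*, *Ikzf3*, which encodes AIOLOS, and *Batf* had log2 fold changes of 2.46, 2.103 and 1.996. Master factors of helper lineages were higher as well, with *Gata3* at 529.8 ± 93.6 and 203 ± 25.97 CPM (log2 fold change 1.38) and *Tbx21* at 32.3 ± 1.69 and 6.31 ± 0.978 CPM (2.35). *Hif1a*, the oxygen-responsive factor, rose by a log2 fold change of 0.77. The 1 member called lower was *Rbpj*, the DNA-binding partner of NOTCH, whose adjusted p of 0.04102 became 0.0394 to 0.0963 with 1 library left out and passed 0.05 without each of CD44high libraries 2, 3 and 4 and CD44low libraries 1, 3 and 4. With a trend on exon length removed it was not called either, at a log2 fold change of -0.13 and an adjusted p of 0.508.

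Of the factors of resting T cells, 0 of 20 members tested were higher, 19 were lower and 1 was not called (median log2 fold change -1.24). *Bach2*, which encodes a repressor of effector differentiation, stood at 21.2, 21.02, 15.5 and 19.2 CPM in the CD44high libraries and 165, 133, 142, 114 and 111 CPM in the CD44low libraries, which gave a log2 fold change of -2.79 (adjusted p = 8.99e-10, SE 0.233) without overlap. *Tcf7* was measured at 333, 289, 327 and 344 CPM in the CD44high libraries and 1226, 1192, 1234, 1229 and 1192 CPM in the CD44low libraries. Its partner *Lef1* had a log2 fold change of -1.28, *Foxp1* -1.22 and *Klf2*, which drives egress and homing receptors, -0.94. *Foxo1* fell less, by a log2 fold change of -0.58 (SE 0.0905). *Id3* had a log2 fold change of -0.6001. The list also held *Myc*, which is not particular to the resting state and is counted again below among genes that the T cell receptor induces. *Myc* was lower in CD44high Tregs, at 142 ± 11.97 and 380.2 ± 39.2 CPM (log2 fold change -1.42). The member not called, *Elf4*, had a log2 fold change of -0.67 (adjusted p = 0.0633, range over the alternatives 3.295e-07 to 0.139).

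Molecules of Treg function were higher for the most part. Of suppressive and repair mediators, 14 of 18 members tested were higher, 1 was lower and 3 were not called (median log2 fold change 2.44). *Gzmb*, which encodes granzyme B, was at 307, 435, 527 and 363 CPM in the CD44high libraries and 1.25, 5.99, 2.13, 4.17 and 5.23 CPM in the CD44low libraries. The lowest CD44high library was far above the highest CD44low library (log2 fold change 6.77, SE 0.325, adjusted p = 4.73e-14). *Fgl2* stood at 699 ± 142 and 22.4 ± 3.72 CPM, the decoy IL-1 receptor gene *Il1r2* at 171 ± 16.5 and 11.2 ± 1.74 CPM, the IL-35 chain gene *Ebi3* at 97.4 ± 10.1 and 8.49 ± 1.96 CPM and the repair factor amphiregulin (*Areg*) at 26.7 ± 3.53 and 2.8996 ± 1.13 CPM. *Lrrc32*, which encodes GARP, the surface anchor of latent TGF-β, went the other way, at 121, 159, 139 and 117 CPM in the CD44high libraries and 545, 448, 523, 508 and 384 CPM in the CD44low libraries. It fell without overlap (log2 fold change -1.85, SE 0.1804, adjusted p = 1.22e-08). *Tgfb1* itself had a log2 fold change of 0.058 (adjusted p = 0.771).

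Genes that mark Treg identity did not move together: 6 of 16 members tested were higher, 5 were lower and 5 were not called (median log2 fold change 0.068). *Ctla4* rose (1051 ± 74.6 and 211 ± 26.5 CPM, log2 fold change 2.32), as did *Capg* (log2 fold change 1.76) and *Tnfrsf18*, which encodes GITR (0.95). *Gpr83* (-2.23) fell with *Lrrc32*, and *Il2ra*, which encodes CD25, fell from 870.2, 756, 927, 855 and 762 CPM in the CD44low libraries to 557, 523, 551 and 541 CPM in the CD44high libraries (log2 fold change -0.62, SE 0.145, adjusted p = 0.00123). Among coinhibitory receptors, 9 of 14 members tested were higher, 2 were lower and 3 were not called (median log2 fold change 1.29). *Klrg1* stood at 322 ± 69.9 and 2.26 ± 1.77 CPM, *Tigit* at 129 ± 11.04 and 11.1 ± 3.34 CPM and *Cd200r1* at 122 ± 7.52 and 20.8 ± 2.97 CPM, and the members called lower were *Cd96* (log2 fold change -1.06) and *Cd160* (-1.07). Of the TNF receptor family, 7 of 16 members tested were higher, 3 were lower and 6 were not called (median log2 fold change 0.803). *Tnfrsf1b*, which encodes TNFR2, stood at 1562 ± 107 and 394 ± 47.6 CPM and *Tnfrsf4*, which encodes OX40, at 1037 ± 99.8 and 404 ± 12.5 CPM, whereas *Fas* was lower (46.7 ± 3.35 and 80.6 ± 5.53 CPM).

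Genes of migration were taken in lists by destination. Of chemokine receptors for inflamed or barrier tissue, 10 of 12 members tested were higher, 1 was lower and 1 was not called (median log2 fold change 2.95), and these 10 were also 2-fold higher. *Ccr10*, a receptor for skin chemokines, stood at 188, 261, 252 and 209 CPM in the CD44high libraries and 0, 0.788, 1.85, 1.58 and 0.844 CPM in the CD44low libraries. The CD44low libraries held almost none of it. *Ccr9*, a receptor of gut homing, was the exception at 6.01 ± 4.35 and 15.3 ± 3.17 CPM (log2 fold change -1.32, SE 0.3301, adjusted p = 0.00228). Of genes for lymph node entry and egress, 1 of 11 members tested was higher, 7 were lower and 3 were not called (median log2 fold change -0.94). *Ccr7*, the receptor that guides cells into lymph nodes, was measured at 264, 336, 282 and 295 CPM in the CD44high libraries and 1096, 916, 894, 901 and 1015 CPM in the CD44low libraries. The groups did not overlap, at a log2 fold change of -1.71 (adjusted p = 6.19e-13, SE 0.0949). The egress receptor gene *S1pr1* was at 542 ± 56.4 and 1062 ± 63.6 CPM. The 1 higher member, *Ly6c2*, had an adjusted p of 0.0276, which became 0.005201 to 0.107 with 1 library left out and passed 0.05 without CD44high library 3 or CD44low library 1, 3 or 4.

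Adhesion genes changed in both directions. Of integrin chains, 10 of 17 members tested were higher, 4 were lower and 3 were not called (median log2 fold change 1.19). Some of these chains are also counted among the macrophage and dendritic cell markers below, and both lists had the same largest log2 fold change, 4.899. The part of such cells in this result was not tested. *Itgae*, which encodes CD103, the partner of β7 in binding to epithelial E-cadherin, was at 1503, 1492, 1435 and 1599 CPM in the CD44high libraries and 149, 124, 149, 125 and 116 CPM in the CD44low libraries. It rose without overlap (log2 fold change 3.51, SE 0.153, adjusted p = 1.01e-14), and the collagen-binding chain gene *Itga2* (4.62) and *Itgb1* (1.54) also rose. *Itga4* stood at 19.6, 19.2, 14.5 and 19.4 CPM in the CD44high libraries and 136, 159.9, 148, 152 and 133 CPM in the CD44low libraries. It fell with *Itga6* and *Itgb3*, whose log2 fold changes were -1.56 and -1.63, and 1 more chain. Among enzymes that build selectin ligands, 5 of 12 members tested were higher, 2 were lower and 5 were not called (median log2 fold change 0.15). The called increase was large for *Fut7* (77.8 ± 4.93 and 2.82 ± 0.774 CPM) and *Gcnt1* (197 ± 10.98 and 10.6 ± 3.92 CPM), the fucosyl- and glucosaminyltransferases of P- and E-selectin ligands, and for the sulfotransferase gene *Chst2* (116 ± 14.8 and 19.1 ± 6.202 CPM). A single member was lower without CD44high library 2 or 4 or CD44low library 1 or 4.

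Calcium-binding and cytoskeletal genes formed another raised group: 21 of 24 members tested were higher, 1 was lower and 2 were not called (median log2 fold change 1.79). *Lgals3* was measured at 159.6, 169.7, 161 and 159.8 CPM in the CD44high libraries and 0.313, 1.58, 2.41, 2.73 and 1.18 CPM in the CD44low libraries. It was low in all 5 CD44low libraries and without overlap (log2 fold change 6.59, SE 0.256, adjusted p = 1.76e-15). *S100a4* (376 ± 67.7 and 14.3 ± 2.38 CPM), *S100a6* (555 ± 77.3 and 18.9 ± 3.92 CPM), galectin-1 (*Lgals1*, 1196 ± 85.2 and 133 ± 12.7 CPM) and *Anxa2* (466 ± 26.95 and 37.7 ± 5.35 CPM) showed the same direction. *Vim*, which encodes the intermediate filament vimentin, stood at 1871 ± 174 and 489.6 ± 39.2 CPM. The lower member, the talin gene *Tln1* (log2 fold change -0.91), had an adjusted p of 0.0305, 0.0239 to 0.0782 with 1 library left out, and was not called without any 1 of the 4 CD44high libraries or CD44low library 1, by DESeq2 on all 4 groups, or with a trend on exon length removed, with log2 fold changes from -0.96 to -0.63 in these fits. Macrophages also express several of these genes. The summed level of the 22 macrophage and dendritic cell markers lay between 136 and 220.4 CPM in CD44high and between 36.3 and 59.1 CPM in CD44low libraries, and their part in this result was not tested.

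Receptors for cytokines and the pathways under them did not share a direction. Of interleukin receptors, 14 of 25 members tested were higher, 5 were lower and 6 were not called (median log2 fold change 0.504). The IL-33 receptor gene *Il1rl1* was at 269, 229, 237 and 265 CPM in the CD44high libraries and 16.1, 12.6, 16.2, 19.8 and 16.5 CPM in the CD44low libraries. All CD44high libraries exceeded all CD44low libraries (log2 fold change 3.94, SE 0.201, adjusted p = 1.48e-13). *Il17rb*, the receptor chain for IL-25, stood at 25.3 ± 5.303 and 1.06 ± 0.6695 CPM (log2 fold change 4.54). *Il4ra*, *Il6st*, which encodes GP130, and *Il6ra* fell, with log2 fold changes of -1.18, -1.38 and -1.09. Among STAT, JAK and SOCS genes, 2 of 18 members tested were higher, 9 were lower and 7 were not called (median log2 fold change -0.24), none by 2-fold. *Stat5a*, which carries signals of IL-2, *Stat4* and *Stat6* had log2 fold changes of -0.82, -0.69 and -0.66, whereas *Jak3* (0.62) and *Cish* (0.51) were higher. In the SMAD and TGF-β pathway, 2 of 18 members tested were higher, 11 were lower and 5 were not called (median log2 fold change -0.68). *Tgfbr3* stood at 9.73 ± 1.73 and 46.3 ± 13.96 CPM, the inhibitor gene *Smad7* at 47.8 ± 6.87 and 148 ± 15.3 CPM and *Skil* at 89.9 ± 10.8 and 203 ± 28.7 CPM. The activin receptor gene *Acvr2a* was higher, with a log2 fold change of 1.1003, and was the 1 member left higher without CD44high library 3.

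Genes of survival and quiescence were mostly lower: 2 of 24 members tested were higher, 15 were lower and 7 were not called (median log2 fold change -0.55). *Igfbp4*, an IGF-binding protein gene of naive T cells, stood at 49.2, 95.97, 89.2 and 65.6 CPM in the CD44high libraries and 629, 696, 643, 807 and 743 CPM in the CD44low libraries. No CD44high library reached a CD44low library (log2 fold change -3.23, SE 0.196, adjusted p = 2.92e-12). *Actn1* stood at 6.95 ± 1.097 and 78.5 ± 8.45 CPM, and the diacylglycerol kinase gene *Dgka*, a brake on receptor signals, at 454 ± 24.7 and 953 ± 49.8 CPM. *Il7r*, the IL-7 receptor chain, was called higher at 344 ± 29.3 and 135 ± 20.9 CPM (log2 fold change 1.35). It was the 1 member left higher without CD44high library 2, 3 or 4 or CD44low library 1 or 5. The BCL2 family divided within itself: 8 of 14 members tested were higher, 3 were lower and 3 were not called (median log2 fold change 0.92). *Bcl2* and the pro-apoptotic gene *Bcl2l11*, which encodes BIM, fell (-1.77 for the latter), as did *Mcl1* (-0.46). *Bcl2l1*, which encodes BCL-xL, rose from 96.9, 107, 76.4, 80.9 and 88.1 CPM in the CD44low libraries to 206, 185, 209.5 and 205 CPM in the CD44high libraries (log2 fold change 1.16, SE 0.119, adjusted p = 2.65e-08), and the pro-apoptotic gene *Pmaip1*, which encodes NOXA, rose by a log2 fold change of 1.95. Of the GIMAP GTPases, which support survival of resting lymphocytes, 0 of 8 members tested were higher, 7 were lower and 1 was not called (median log2 fold change -1.05). *Gimap4* stood at 342 ± 23.95 and 795 ± 41.7 CPM, *Gimap6* at 298 ± 38.1 and 638 ± 48.9 CPM and *Gimap3* at 552 ± 40.8 and 1199 ± 77.2 CPM.

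Signalling genes below the T cell receptor were counted next. Of the receptor complex and its proximal enzymes, 4 of 25 members tested were higher, 9 were lower and 12 were not called (median log2 fold change -0.12). The lower members included the Tec kinase gene *Txk* (39.5 ± 8.89 and 131 ± 16.2 CPM), the kinase gene *Prkcq* (log2 fold change -0.93) and the developmental adaptor gene *Themis* (-1.48). The phosphatase gene *Ptpn22* and the adaptor gene *Lcp2*, which encodes SLP-76, were higher by log2 fold changes of 0.62 and 0.399. Among genes that the receptor induces, 6 of 18 members tested were higher, 4 were lower and 8 were not called (median log2 fold change -0.11). As shares these were 33.3% higher and 22.2% lower, beside 24.7% and 21.3% of all genes tested. *Icos* was measured at 1909, 2024, 1620.5 and 1788 CPM in the CD44high libraries and 153, 152, 131, 117 and 113 CPM in the CD44low libraries. It rose without overlap (log2 fold change 3.78, SE 0.145, adjusted p = 1.602e-15), and *Cd83* (1.49) rose with it. Among early reporters of receptor signalling, *Nr4a1* and *Cd69* were not called. *Nr4a1* had a log2 fold change of 0.038 (adjusted p = 0.858, SE 0.152) and *Cd69* of -0.12 (adjusted p = 0.481, SE 0.132, range of the adjusted p over the alternatives 0.0263 to 0.955). With a replicate block on the 9 libraries *Cd69* was called lower (log2 fold change -0.24). Of immediate-early genes of the AP-1 kind, 2 of 15 members tested were higher, 3 were lower and 10 were not called (median log2 fold change -0.017). *Fos* was at 338, 279, 271 and 567 CPM in the CD44high libraries and 165, 316, 315, 189 and 288 CPM in the CD44low libraries (log2 fold change 0.52, SE 0.56005, adjusted p = 0.471, range of the adjusted p over the alternatives 0.0386 to 0.809), whereas *Jun* was lower at 141 ± 31.3 and 433 ± 44.9 CPM (log2 fold change -1.62, SE 0.286, adjusted p = 6.45e-05).

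Genes of G2 and M phase had the largest median log2 fold change of the gene lists examined. Of these genes, 35 of 35 members tested were higher, 0 were lower and 0 were not called (median log2 fold change 4.87), and all 35 were 2-fold higher or more. *Ccnb2*, which encodes cyclin B2, stood at 159, 177, 168 and 159 CPM in the CD44high libraries and 1.09, 3.15, 2.697, 2.44 and 2.03 CPM in the CD44low libraries. The lowest CD44high value was many times the highest CD44low value (log2 fold change 6.16, SE 0.231, adjusted p = 1.29e-15). *Mki67*, which encodes Ki-67, was measured at 62.4, 75.8, 107 and 79.03 CPM in the CD44high libraries and 5.78, 1.89, 2.13, 2.87 and 0.844 CPM in the CD44low libraries (log2 fold change 4.89). *Top2a* stood at 159 ± 22.1 and 10.1 ± 3.55 CPM, *Ccna2* at 170.3 ± 24.5 and 9.92 ± 2.05 CPM and *Birc5*, which encodes survivin, at 99.7 ± 14.3 and 1.88 ± 0.988 CPM. *Hmmr*, which encodes a receptor for hyaluronan that also binds the spindle, had 4 counts over the CD44low libraries and a log2 fold change of 8.304, which was 9.62 without CD44low library 2. The summed level of the 35 genes lay between 1984 and 2513 CPM in CD44high and between 128 and 179 CPM in CD44low libraries, a share of 0.196% to 0.249% of counts against 0.0129% to 0.0182%.

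Of genes of S phase, 33 of 35 members tested were higher, 0 were lower and 2 were not called (median log2 fold change 1.64). *Rrm2*, a subunit of ribonucleotide reductase, was at 284, 367, 333 and 331 CPM in the CD44high libraries and 16.3, 7.09, 8.801, 15.95 and 7.597 CPM in the CD44low libraries. This was the largest change of the list (log2 fold change 4.88, SE 0.225, adjusted p = 2.600e-14), and *Uhrf1* (157 ± 28.3 and 17.05 ± 5.06 CPM), *Tk1* (43.4 ± 7.36 and 2.14 ± 1.32 CPM) and *Mcm5* (315 ± 39.3 and 89.4 ± 8.19 CPM), a chain of the replicative helicase, were higher as well. In the list of G1 cyclins, their kinases and inhibitors, 12 of 17 members tested were higher, 1 was lower and 4 were not called (median log2 fold change 0.81). Both the E cyclins (*Ccne1*, log2 fold change 2.302, and *Ccne2*, 2.59) and inhibitors (*Cdkn2c*, 3.58, and *Cdkn1a*, 3.01) were higher. *Ccnd2* and the inhibitor gene *Cdkn1b*, at log2 fold changes of 0.104 and 0.035, were not called, and without CD44high library 5 no member was lower. With a trend on exon length removed *Ccnd2* was called higher (log2 fold change 0.36).

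The promoters of these genes were read from RefSeq (build GRCm38.p6), 250 bases before the start of 1 transcript for each of 9123 genes tested. Mitotic genes are known for CCAAT boxes and for the CHR element (TTTGAA), and S phase genes for E2F sites (searched as TTTCCCGC or TTTGGCGC), with each motif sought on both strands. None of these spellings contains another. A CCAAT box stood in 76.7% of 30 G2 and M phase promoters, in 58.6% of 29 S phase promoters and in 36.8% of all 9123. The letters TTTGAA stood in 36.7% of the G2 and M phase promoters and 10.6% of all, and the E2F letters in 20.7% of the S phase promoters and 2.7% of all. Of the promoters of all 2-fold higher genes (1036) and 2-fold lower genes (729), 39.0% and 32% held CCAAT, 14.2% and 8.5% TTTGAA, and 3.8% and 2.1% the E2F letters. A match describes the letters, not a bound site. The 120 bases before the start are shown for the 4 G2 and M phase genes of smallest p with a CCAAT box there and the 2 S phase genes of smallest p with the E2F letters there, 5′ to 3′ along the gene's strand. Genes on 1 chromosome were left out of this choice. Capitals mark CCAAT or TTTGAA in the first 4 and CCAAT or the E2F letters in the last 2, or the reverse complement of either.
Ccnb2, chr9:70421555-70421674, minus strand: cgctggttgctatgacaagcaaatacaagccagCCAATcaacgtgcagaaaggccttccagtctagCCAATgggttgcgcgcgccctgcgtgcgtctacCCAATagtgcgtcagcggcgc
Kif23, chr9:61946800-61946919, minus strand: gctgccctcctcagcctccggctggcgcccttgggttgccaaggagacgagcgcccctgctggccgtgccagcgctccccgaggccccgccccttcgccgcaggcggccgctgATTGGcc
Cdc20, chr4:118437344-118437463, minus strand: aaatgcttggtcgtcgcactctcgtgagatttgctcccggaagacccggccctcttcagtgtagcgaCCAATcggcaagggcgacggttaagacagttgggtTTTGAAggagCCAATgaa
Hmmr, chr11:40733438-40733557, minus strand: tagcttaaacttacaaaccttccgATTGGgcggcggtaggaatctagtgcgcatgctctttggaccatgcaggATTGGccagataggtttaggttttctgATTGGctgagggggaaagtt
Mcm6, chr1:128359706-128359825, minus strand: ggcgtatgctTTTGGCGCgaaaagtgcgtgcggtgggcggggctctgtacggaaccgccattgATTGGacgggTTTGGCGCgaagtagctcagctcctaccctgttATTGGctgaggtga
Gins3, chr8:95633439-95633558, plus strand: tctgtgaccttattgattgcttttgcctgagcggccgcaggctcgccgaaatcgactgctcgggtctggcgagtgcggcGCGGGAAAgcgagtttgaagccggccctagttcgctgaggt

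These 6 genes were all higher in CD44high Tregs. The promoter of *Ccnb2* holds 3 CCAAT boxes in this window and that of *Cdc20* has both kinds of element. *Kif23* stood at 64.7 ± 13.5 and 3.97 ± 0.719 CPM, *Cdc20* at 83.2 ± 9.77 and 9.89 ± 2.31 CPM, *Mcm6* at 759 ± 67.7 and 244 ± 19.2 CPM and *Gins3* at 18.8 ± 3.74 and 9.23 ± 2.21 CPM.

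Cytosolic ribosomal protein genes were lower as a body: 1 of 78 members tested was higher, 74 were lower and 3 were not called (median log2 fold change -0.9996). They took between 1.25% and 1.54% of counts in CD44high and between 2.53% and 3.13% in CD44low libraries, without overlap. *Rps19* stood at 222, 251, 248 and 251 CPM in the CD44high libraries and 554, 601, 626, 717 and 691 CPM in the CD44low libraries. Its log2 fold change was -1.39 (adjusted p = 6.47e-07, SE 0.175), close to those of *Rps7* (-1.39) and *Rps18* (-1.26). *Rpl13* stood at 402 ± 18.5 and 817 ± 65.5 CPM. The higher member, *Rps27l*, is a p53-responsive relative of a ribosomal protein gene that the symbol pattern took in (log2 fold change 0.83). The count of lower members was between 71 and 74 under every alternative tried for it. These genes are short and have near-identical processed copies in the genome, among which the counting could divide reads, so single values are uncertain.

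Fewer genes were called in other lists of translation and energy metabolism. Of mitochondrial ribosomal proteins, 8 of 78 members tested were higher, 3 were lower and 67 were not called (median log2 fold change 0.0603), and of translation initiation factors, 9 of 52 members tested were higher, 13 were lower and 30 were not called (median log2 fold change -0.055). The shares of initiation factors, 17.3% higher and 25% lower, stood beside 24.7% and 21.3% of all genes tested. With a trend on exon length removed, an alternative added after the data were seen, 12 mitochondrial members were lower. Without CD44low library 1 the lower mitochondrial members were 6, and without CD44high library 4 the higher ones were 5. The difference between the cytosolic and the mitochondrial list was not tested. The letters CCGGAAG, the core of ETS factor sites, stood in 31.0% of 58 cytosolic ribosomal promoters and in 15.2% of all 9123, in 31.0% of 29 S phase promoters, and in 9.6% and 10.4% of those of all 2-fold higher and lower genes. The windows of the 2 cytosolic ribosomal genes of smallest p that held them are shown in the same way, with these letters or their reverse complement in capitals. The same chromosome was left out of the choice.
Rps7, chr12:28635954-28636073, minus strand: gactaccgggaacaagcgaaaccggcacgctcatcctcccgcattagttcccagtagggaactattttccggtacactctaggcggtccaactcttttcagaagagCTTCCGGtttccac
Rps6, chr4:86857368-86857487, minus strand: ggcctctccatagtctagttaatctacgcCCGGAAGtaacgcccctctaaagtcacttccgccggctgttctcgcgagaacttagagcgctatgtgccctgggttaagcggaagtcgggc

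Both genes were lower in CD44high Tregs, *Rps6* with a log2 fold change of -0.89 (adjusted p = 4.45e-06, SE 0.128). *Rps7* was measured at 116, 121, 131 and 133 CPM in the CD44high libraries and 281, 329.6, 315, 359 and 357 CPM in the CD44low libraries, without overlap between the groups.

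In nuclear genes of the respiratory chain, 12 of 84 members tested were higher, 4 were lower and 68 were not called (median log2 fold change 0.14). The count of higher members was 25 with edgeR and 27 with DESeq2 on the 9 libraries alone. Of glycolysis genes, 12 of 21 members tested were higher, 3 were lower and 6 were not called (median log2 fold change 0.39). *Tpi1* (210.1 ± 30.6 and 81.1 ± 5.92 CPM), the lactate exporter gene *Slc16a3* (27.6 ± 5.65 and 9.802 ± 2.01 CPM) and *Pkm* (1882 ± 95.1 and 959 ± 70.4 CPM) were higher, and *Gapdh* was at 563, 588, 588 and 636 CPM in the CD44high libraries and 332, 322, 325, 326 and 343 CPM in the CD44low libraries. Its increase was moderate and without overlap (log2 fold change 0.85, SE 0.116, adjusted p = 2.19e-06). The glucose transporter gene *Slc2a1* was not called (log2 fold change -0.091), and *Pdk1*, which restrains pyruvate oxidation, was lower (78.8 ± 4.86 and 235 ± 19.5 CPM). Of fatty acid oxidation and lipid handling, 11 of 19 members tested were higher, 2 were lower and 6 were not called (median log2 fold change 0.402). *Fabp5*, a fatty acid carrier gene, and the oxidation genes *Etfb* and *Hadh* were higher (log2 fold changes 1.398, 0.79 and 0.65), whereas *Fasn* and *Acaca*, which encode the enzymes of fatty acid synthesis, were lower (-1.15 and -1.64). Of cholesterol genes, 6 of 23 members tested were higher, 3 were lower and 14 were not called (median log2 fold change 0.13), and 1 was lower without CD44high library 4 or CD44low library 1. The share higher, 26.1%, was close to the 24.7% of all genes tested.

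Of the unfolded protein response and ER chaperones, 13 of 24 members tested were higher, 3 were lower and 8 were not called (median log2 fold change 0.46). The sensor gene *Atf6* stood at 53.1, 53.2, 56.7 and 61.2 CPM in the CD44high libraries and 18.8, 22.8, 22.9, 22.1 and 29.2 CPM in the CD44low libraries and did not overlap between groups (log2 fold change 1.28, SE 0.225, adjusted p = 6.39e-05). The chaperone genes *Hsp90b1* and *Sdf2l1* had log2 fold changes of 0.79 and 1.25, and 1 member of the list was lower without CD44high library 3. Of heat shock genes, 2 of 14 members tested were higher, 4 were lower and 8 were not called (median log2 fold change -0.19). The shares called, 14.3% higher and 28.6% lower, stood beside 24.7% and 21.3% of all genes tested. Of proteasome subunits, 14 of 38 members tested were higher, 1 was lower and 23 were not called (median log2 fold change 0.22), and 2 were lower without CD44high library 3 or CD44low library 1. Among lysosomal proteases and their inhibitors, 10 of 19 members tested were higher, 2 were lower and 7 were not called (median log2 fold change 0.56). *Lgmn*, which encodes legumain, was measured at 109.8, 103, 101 and 96.97 CPM in the CD44high libraries and 17.98, 11.5, 12.3, 12.8 and 10.97 CPM in the CD44low libraries. Its libraries did not overlap (log2 fold change 2.96, SE 0.137, adjusted p = 2.599e-14), and *Ctsa* and *Ctsb* rose by log2 fold changes of 1.599 and 1.02, whereas *Ctsw* fell (-1.303).

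Of DNA and histone modifiers, 2 of 22 members tested were higher, 10 were lower and 10 were not called (median log2 fold change -0.48). The lower members included the histone methyltransferase gene *Kmt2d* (77.4 ± 9.49 and 215 ± 30.8 CPM), its relative *Kmt2a* (67.6 ± 9.803 and 134 ± 8.85 CPM) and *Tet3* (71.4 ± 7.04 and 161 ± 17.8 CPM). *Ezh2*, which encodes the Polycomb methyltransferase, was at 62.8, 73.2, 91.7 and 81.9 CPM in the CD44high libraries and 24.9, 41.6, 43.3, 44.6 and 26.7 CPM in the CD44low libraries and was higher without overlap (log2 fold change 1.09, SE 0.162, adjusted p = 7.21e-06). Among interferon-stimulated genes, 5 of 38 members tested were higher, 9 were lower and 24 were not called (median log2 fold change -0.096). These shares, 13.2% higher and 23.7% lower, stood beside 24.7% and 21.3% of all genes tested. By 2-fold, 3 members were higher and 7 lower, and log2 fold changes ran from -2.09 to 3.30. *Ifi208*, *Usp18* and *Ifit2* were lower, at log2 fold changes of -1.87, -1.705 and -1.29. *Isg15* (-0.056, SE 0.2498, adjusted p = 0.874) was not called. For MHC class I presentation, 5 of 14 members tested were higher, 3 were lower and 6 were not called (median log2 fold change 0.12), and the class I activator gene *Nlrc5* was lower at 46.7, 53.4, 57.05 and 51.9 CPM in the CD44high libraries and 212, 161, 208, 190.01 and 140.5 CPM in the CD44low libraries. Of a list of RGS and G protein signalling genes, 7 of 18 members tested were higher, 4 were lower and 7 were not called (median log2 fold change 0.2001). The largest change was that of *Hrh4*, given above. The list also held *P2rx7*, which encodes an ATP-gated channel and not a G protein-coupled receptor, and which was lower at 31.4 ± 8.62 and 136 ± 15.95 CPM. The shares of this list, 38.9% higher and 22.2% lower, stood beside 24.7% and 21.3% of all genes tested.

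**Figure D3:**
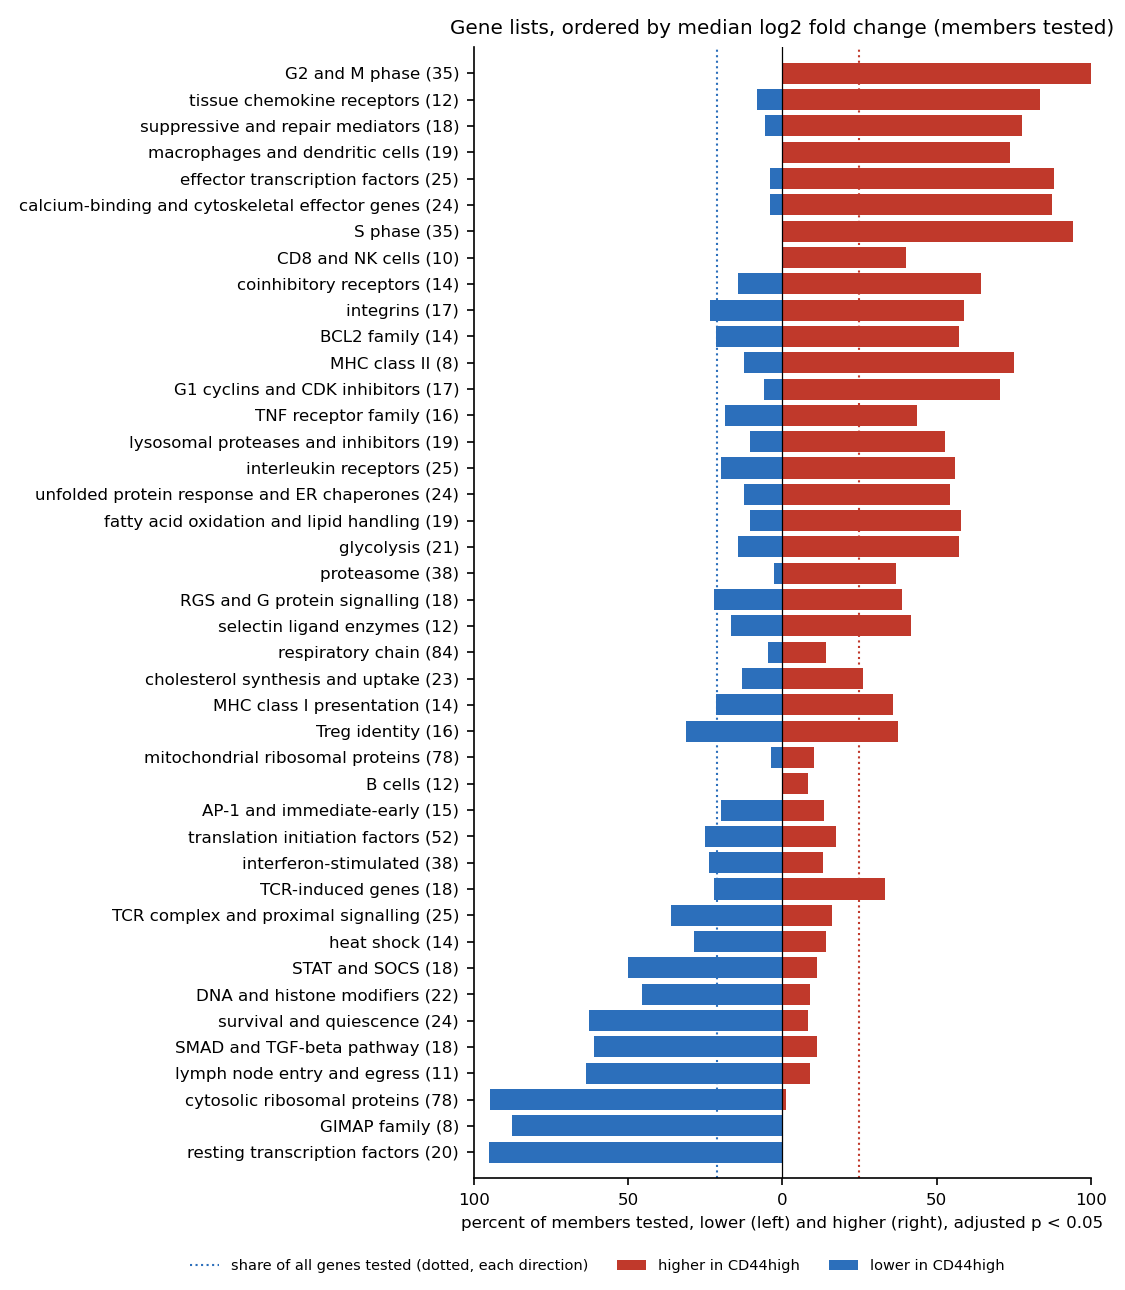
Percent of the members tested of each gene list that were higher (red, to the right) or lower (blue, to the left) in CD44high Tregs at an adjusted p under 0.05, for lists with 8 or more members tested (number in parentheses), ordered by median log2 fold change. Dotted lines mark the shares of all genes tested, 24.7% and 21.3%, and the bars of G2 and M phase (100% higher) and of cytosolic ribosomal proteins and resting transcription factors (94.9% and 95% lower) pass them by far.

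**Figure D4:**
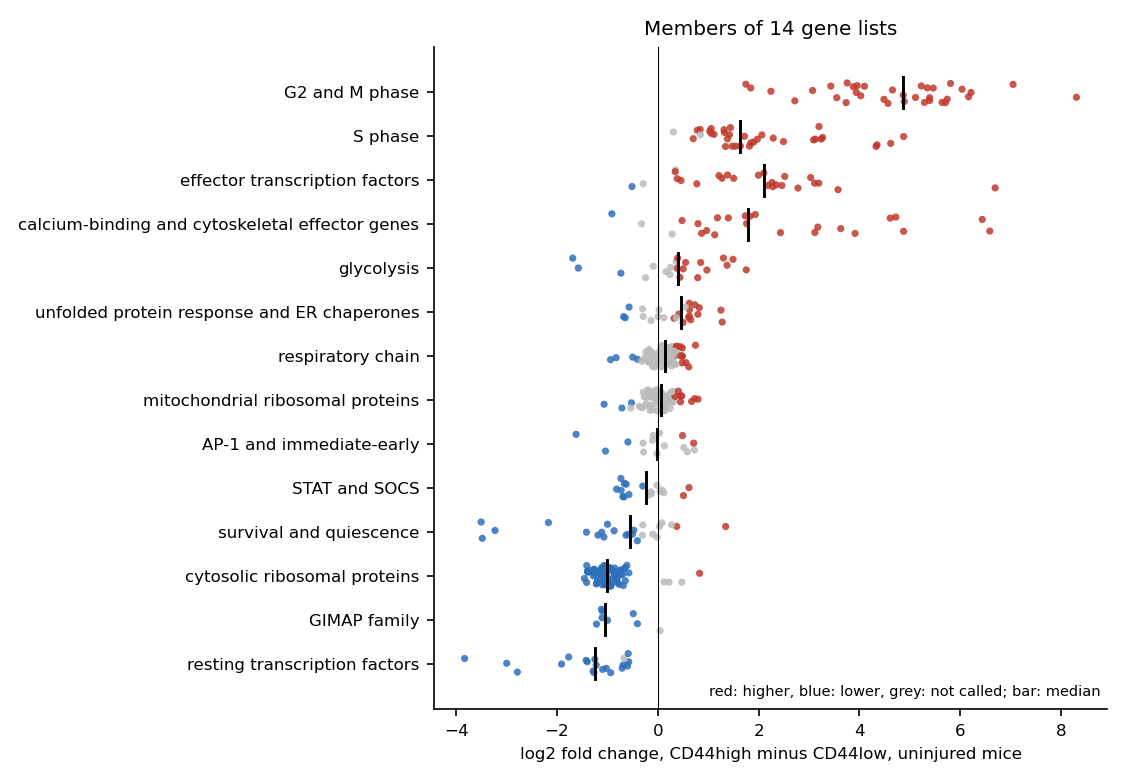
Fitted log2 fold change of CD44high over CD44low Tregs for each member tested of 14 gene lists, red for members called higher, blue for lower and grey for not called, with a black bar at the list's median. The G2 and M phase members spread from 1.75 to 8.304, whereas most cytosolic ribosomal members lie near their median of -0.9996.

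Over the 79 groups of genes that share a symbol stem and have 15 or more members tested, the highest shares of higher genes were those of Cdc (15 of 27), Mfsd (8 of 15), Il (17 of 33), Gpr (11 of 22), Kif, the kinesins (13 of 27), and Rad (8 of 18). The highest shares of lower genes were those of Rpl (43 of 46), Rps (30 of 43), Kdm, the histone demethylases (9 of 18), the RNA helicases Dhx (8 of 16), and Phf (8 of 18). These groups follow spelling and not function, and they overlap with the lists above.

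Genes that mark other cell types were examined in both sorts. Of macrophage and dendritic cell markers, 14 of 19 members tested were higher, 0 were lower and 5 were not called (median log2 fold change 2.28), with summed levels as given above, and 5 were higher with a minimum count of 50 in the filter, which leaves fewer markers tested. *Lyz2* stood at 111, 43.4, 53.2 and 93.2 CPM in the CD44high libraries and 18.4, 24.4, 33.4, 17.97 and 18.4 CPM in the CD44low libraries, and *Csf1r* at 11.6 ± 4.64 and 3.93 ± 2.06 CPM. *Siglech*, a marker of plasmacytoid dendritic cells, stood at 17.3 ± 2.95 and 0.745 ± 0.844 CPM. Of MHC class II genes, 6 of 8 members tested were higher, 1 was lower and 1 was not called (median log2 fold change 0.85), with none lower without CD44high library 3 or 4 or CD44low library 1. *Cd74* was measured at 1563, 1196, 762 and 1007 CPM in the CD44high libraries and 342, 439.9, 371, 273 and 337 CPM in the CD44low libraries, higher in all 4 CD44high libraries, and the summed level of the class lay between 1047 and 2181 CPM in CD44high and between 517 and 812 CPM in CD44low libraries. Of B cell markers, 1 of 12 members tested was higher, 0 were lower and 11 were not called (median log2 fold change 0.057). *Ms4a1*, which encodes CD20, was at 23.5 ± 11.2 and 20.1 ± 6.79 CPM, a difference smaller than the spread. Of 12 neutrophil markers 4 were tested. *Mmp9* (log2 fold change 4.69, 5.45 without CD44low library 2) and *Ltf* (at least 39.5-fold higher, with no count in CD44low libraries) were higher. The other 2 were not called, and the lowest log2 fold change of the 4 was -2.23. The summed level of the 12 lay between 55.5 and 112 CPM in CD44high and between 0.852 and 8.19 CPM in CD44low libraries, and 4 of the 12 had no count in any of the 9 libraries. Of CD8 and NK cell markers, 4 of 10 members tested were higher, 0 were lower and 6 were not called (median log2 fold change 1.29). All 4 higher members were 2-fold higher or more, whereas *Cd8a* was not called, at 9.68 ± 4.07 and 11.2 ± 1.29 CPM. The summed level of the 13 markers lay between 155 and 198 CPM in CD44high and between 88.0 and 123 CPM in CD44low libraries. Of follicular T cell genes, 3 of 6 members tested were higher, 2 were lower and 1 was not called (median log2 fold change 0.51), with none lower without CD44high library 4 or 5 and 1 lower without CD44low library 1 or 3. Of 14 stromal markers 2 passed the filter. *Col1a1* was higher (2 counts in the CD44low libraries, CPM ratio 38.9 (95% exact counting interval 10.3 to 328)). It had no test result by edgeR on the 9 libraries alone and was called higher in every alternative that tested it. The endothelial and T cell gene *Pecam1* was lower (60.8 ± 6.79 and 202 ± 14.04 CPM). Of 10 genes of innate-like lymphocytes 3 were tested, of which 2 were higher, among them *Il1rl1*. Red cell and platelet genes summed to between 0.14 and 3.21 CPM and none was tested. The part of other cells in the differences between the sorts was not tested.

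Tregs of injured mice were then used to ask which differences belonged more to one state than to the other, by the test of the difference between differences (interaction) in the same fit. The uninjured and the injured comparison share no library. At an adjusted p under 0.05, 74 of 11464 genes (0.645%) differed, 52 with a positive and 22 with a negative coefficient, and 1247 at an unadjusted p under 0.05. In 69 of the 74 the absolute difference was larger in uninjured mice. The count was 215 with DESeq2 and 314 without the 3 injured CD44low libraries whose labels carry a second number, so it depends on the tool and on these libraries, and between 53 and 73 with 1 uninjured library left out. Of the 2306 genes called by 2-fold in uninjured mice, 2269 had the same sign in injured mice, where 1108 genes were 2-fold higher and 558 lower. Pearson's r of the log2 fold changes across genes, which are not independent replicates, was 0.889.

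The 5 positive coefficients of smallest p were those of *Ccr10*, *Racgap1*, *Lgals3*, *Ccnb2* and *Jaml*. *Ccr10* stood at 83.8 ± 11.5 and 3.66 ± 1.36 CPM in injured mice (4 CD44high and 6 CD44low libraries), where its log2 fold change was 4.54 beside 7.75 in uninjured mice, an interaction of 3.21 (SE 0.427, adjusted p = 0.000422). *Ccnb2* was at 110.5 ± 15.6 and 6.92 ± 2.36 CPM in injured mice, where its log2 fold change was 3.99 beside 6.16. The fitted difference of *Jaml*, an adhesion molecule gene, was 1.33 in uninjured and -0.91 in injured mice (interaction 2.23, SE 0.3203, adjusted p = 0.000631). The negative ones of smallest p included *Satb1*, *Dennd2d*, *Itga4* and *Max*. *Satb1* stood at 139 ± 14.2 and 609 ± 46.3 CPM in injured mice, with a log2 fold change of -2.13 beside -3.83 (interaction -1.71, SE 0.166, adjusted p = 4.72e-06). *Itga4* had -3.002 and -1.73, and *Max*, which encodes the partner of MYC, had -1.51 and 0.76 (interaction -2.27, SE 0.3801, adjusted p = 0.00321). By lists, 8 of 24 calcium-binding and cytoskeletal genes, 4 of 12 tissue chemokine receptors and 4 of 35 G2 and M phase genes had an interaction. Of all genes tested, 0.645% had one. By edgeR, 0 of 78 ribosomal protein genes had one, a count near that overall share. The median log2 fold change of G2 and M phase genes was 4.87 in uninjured and 3.56 in injured mice, that of resting transcription factors -1.24 and -1.001, and that of cytosolic ribosomal proteins -0.9996 and -0.596.

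**Figure D5:**
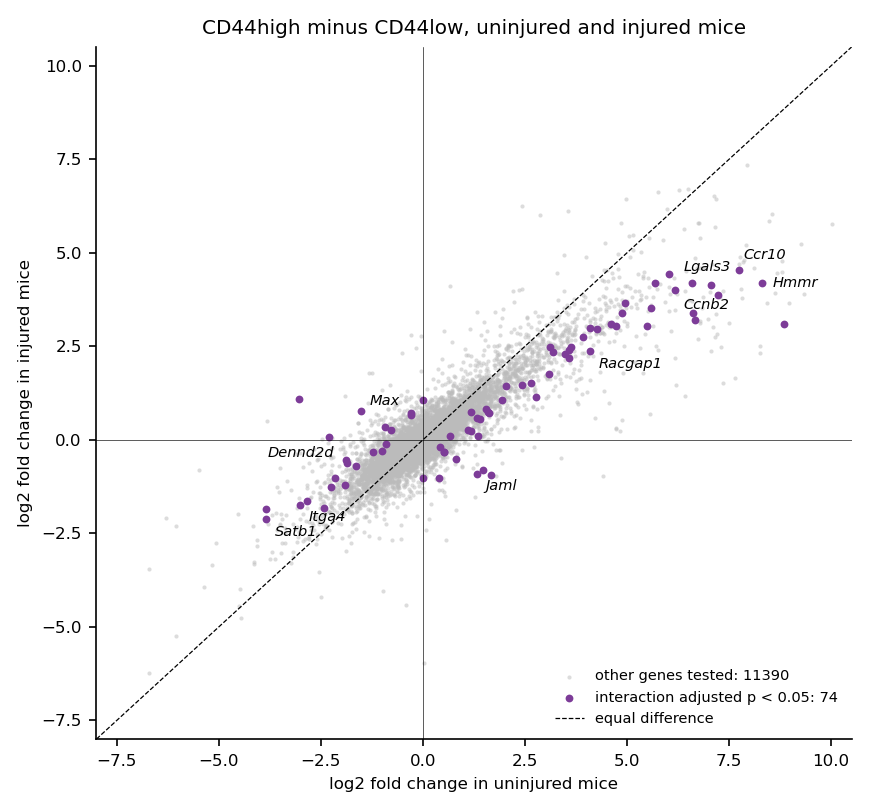
Log2 fold change of CD44high over CD44low Tregs in injured mice (vertical) against that in uninjured mice (horizontal) for the genes tested, with the dashed line where both are equal. Purple points are the 74 genes with an interaction at an adjusted p under 0.05, and most of them lie nearer to 0 on the vertical axis than on the horizontal one.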

How the data were processed

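Bulk RNA-seq was analysed from 4 CD44high and 5 CD44low Treg libraries of uninjured mice, with 10 of injured mice in the same fit. The authors deposited 1 table of raw counts per gene symbol, not normalised, made with the VIPER workflow (SMART-Seq v4 cDNA, Swift 2S libraries). The submitters' processing notes name STAR 2.5, bcl2fastq 2.18 and both mm9 and mm10, without saying which build served which step. A count cannot tell molecules from PCR copies, so counting intervals cover counting error only. Short transcripts and near-identical copies are the genes most exposed to how reads were assigned.

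From the 24982 rows, genes were filtered with edgeR's filterByExpr (minimum count 10), scaled by TMM and fitted with edgeR 4.0.16 (limma 3.58.1, R 4.3.3) in 1 quasi-likelihood model over 4 groups and 19 libraries, with Benjamini-Hochberg adjustment over 11464 genes and edgeR's default prior count for fitted log2 fold changes (log2 CPM for correlations between libraries used a prior count of 2). The interaction came from the same fit. Groups came from the labels. The tests were first tried on simulated data with known changes. Alternatives were DESeq2 1.42.0, fits on the 9 libraries, RLE, upper-quartile or no factors, other filters, glmTreat, a replicate block and each library left out. Tables and plots used Python 3.11.15 and matplotlib 3.10.9.

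Named were the 10 genes of smallest p in each direction with a 2-fold change and no overlap, the 10 of largest change in each direction at a mean of 10 CPM or more, the 6 markers of the comparison, up to 6 members of each list by p together with those the list's name stands for and those called against its direction, and 5 genes of smallest interaction p in each direction. The samples, gene lists and this rule were chosen with earlier results of these data known, so that no list is independent evidence. Some genes that these rules name are not reported here.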

Additional observations from a re-analysis of the deposited data

Results flagged for a closer look

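Within groups, 35 values stood far from the other libraries of their group, out of 402 groups of values examined for the genes and measures of the text. For normally distributed values chance alone picks out about 1 group in 20. That rate does not hold for a group with counts in 1 library only, which is always picked out, and the groups share libraries. *1500009L16Rik*, *Ccr1*, *Col1a1*, *E2f8*, *Parpbp* and *Pbk* had their few CD44low counts in 1 library each, at 0.169 CPM (library 5), 0.284 CPM (library 3), 0.284 CPM (library 3), 0.284 CPM (library 3), 0.284 CPM (library 3) and 0.575 CPM (library 4) in that order. In CD44high library 2, the values that stood apart (CPM, with the range of the others of the group) were those of *Cd83* at 370.5 beside 286 to 298, *Fas* at 41.7 beside 47.6 to 48.7, *Klrg1* at 425 beside 276 to 300.2, *Nfil3* at 54.9 beside 79.4 to 83.6, *Rps19* at 222 beside 248 to 251 and *Tnfrsf4* at 1185 beside 970.5 to 1007. In CD44high library 3, the values that stood apart (CPM, with the range of the others of the group) were those of *Jaml* at 49.8 beside 32.7 to 35.3, *Lgals3* at 169.7 beside 159.6 to 161 and *Tgfb1* at 168 beside 148 to 149.95. In CD44high library 4, the values that stood apart (CPM, with the range of the others of the group) were those of *Itga4* at 14.5 beside 19.2 to 19.6, *Mcl1* at 792 beside 721 to 727 and *Siglech* at 21.7 beside 15.6 to 16.05. In CD44high library 5, it was *Bcl2* at 47.6 beside 59.2 to 60.05 CPM. In CD44low library 1, the values that stood apart (CPM, with the range of the others of the group) were those of *Cd69* at 106 beside 162 to 176, *Cdc20* at 13.9 beside 8.103 to 9.49, *Foxo1* at 1003 beside 861 to 884, *Lgmn* at 17.98 beside 10.97 to 12.8, *Tet3* at 192 beside 148 to 156 and *Tgfbr3* at 71.1 beside 38.2 to 41.3. In CD44low library 2, the values that stood apart (CPM, with the range of the others of the group) were those of *Birc5* at 0.158 beside 2.03 to 2.56, *Ly6c2* at 11.97 beside 5.61 to 7.26, *Mmp9* at 7.72 beside 0.852 to 2.66 and *Pmaip1* at 14.02 beside 9.12 to 9.85. In CD44low library 3, it was *Bcl2l11* at 147 beside 109.7 to 115 CPM. In CD44low library 4, it was *Gins3* at 13.1 beside 7.52 to 8.82 CPM. In CD44low library 5, the values that stood apart (CPM, with the range of the others of the group) were those of *Cd8a* at 8.95 beside 11.7 to 11.97 and *Kif23* at 5.23 beside 3.44 to 3.83. The total of CD44high library 5 was 8319320 counts beside 5678888 to 6077717, and the summed level of neutrophil markers in CD44low library 2 was 8.19 CPM beside 0.852 to 2.701.

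The log2 difference between CD44high and CD44low Tregs differed between uninjured and injured mice, by the interaction of the edgeR fit over all genes, for 26 genes of the text. The uninjured minus injured values above 0 were *Anxa2* 1.15, *Ccna2* 1.102, *Ccnb2* 2.17, *Ccr10* 3.21, *Ccr2* 1.48, *Cish* 0.85, *Cxcr6* 1.59, *Fgl2* 1.29, *Hmmr* 4.11, *Id2* 0.84, *Il7r* 1.23, *Jaml* 2.23, *Lgals3* 2.403, *Myo1f* 1.18, *Racgap1* 1.73, *Rora* 0.64, *S100a6* 1.49 and *Vim* 0.88. Those below 0 were *Art2b* -1.97, *Dennd2d* -1.25, *Evl* -0.602, *Gimap4* -0.896, *Itga4* -1.27, *Max* -2.27, *Satb1* -1.71 and *Tcf7* -0.702. Counts of *Hmmr* in CD44low libraries of uninjured mice were 4 in all, so its value is imprecise. What lies behind these values was not tested.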

How the results depend on the processing

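The 2-fold counts moved by over 1.5 times only under other thresholds: tested against a change of 2-fold (glmTreat), 858 genes were higher and 276 lower, and at an unadjusted p under 1e-06, 715 and 236. Other tools, factors and filters gave 962 to 1690 higher and 699 to 1008 lower, and 56.9% to 63.2% of 2-fold calls were higher (63.5% with a trend on exon length removed). The interaction count was 215 by DESeq2 and 314 without the 3 injured CD44low libraries with a second number in their labels. Higher macrophage and dendritic cell markers fell to 5 with a minimum count of 50, and higher respiratory chain genes rose to 27 and 25 by DESeq2 and edgeR on the 9 libraries alone and to 23 without those 3 libraries, an alternative chosen after seeing the data, as were thinning to the smallest library and removing a trend on exon length. The cause of these shifts was not tested. The other list counts of 10 or more stayed within 1.5 times under the alternatives run.

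With 1 uninjured library left out, 2564 to 2728 genes were higher and 2120 to 2406 lower, 1340 to 1387 and 884 to 955 by 2-fold, 58.7% to 61.0% of these were higher, and 53 to 73 genes had an interaction. Such fits left between 9 and 13 respiratory chain genes, 12 and 14 macrophage and dendritic cell markers and 10 and 16 proteasome genes higher, and 71 to 74 cytosolic ribosomal genes lower. Of 4047 pairs of a named gene and an alternative, none changed direction with a call in either fit. Where neither fit had a call the sign could change, as for *Cd8a*. Its log2 fold change was -0.21 in the main fit and up to 0.034 with 1 library left out. Of the pairs, 20 lost the call (*Ly6c2*, *Rbpj* and *Tln1*) and 14 gained one.

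With the number in the labels as a replicate block (9 libraries), 2788 genes were higher and 2628 lower, 1251 and 821 by 2-fold. The numbers share no stated source: deviations of the 4 same-numbered pairs correlated at -0.0068 to 0.119, and 2 of 4 CD44high libraries correlated best with their own number. Thresholds on counts limit genes under 1 CPM, where 1 library holds only a few counts. The planned measures of V gene use were not run, and V genes were not analysed here.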
